A study of Mus musculus with 4 samples.

Results

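The regions described here are CpG-dense 1 kb tiles of the mouse autosomes that were methylated in a wild-type (WT) embryonic brain. A tile is a stretch of 1000 bp on a fixed grid, and its methylation level is the percentage of methylated reads among all reads at its CpGs. Tiles were chosen by 3 criteria: at least 40 CpGs listed in the union of the 4 CpG tables, at least 3 of these with 5 or more reads in every library, and a level of at least 80% in the WT library at 3 ppm folic acid (FA). The last criterion is a measured value, so the level in that library describes the choice and is not a result. The rule gave 1390 tiles, which were 8.93% of the 15574 CpG-dense tiles that could be scored and came from 1863069 scored tiles in all. A further 3067 CpG-dense tiles lay between 20% and 80% in the same library, and 11117 lay below 20%.

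The study measured CpG methylation by whole-genome bisulfite sequencing in whole brains of male mouse embryos at stage E11.5. It asks how loss of TET1, an enzyme that oxidises 5-methylcytosine and so starts its removal, interacts with the folic acid supply of the mother. There were 4 groups of 1 embryo each, Tet1 knockout (KO) and WT at 30 ppm FA (excess) and Tet1 KO and WT at 3 ppm FA (control). All embryos were of the strain 129S6.cg Tet1<tm1Koh>, and all dams were Tet1 heterozygotes kept on their diet for at least 4 weeks, with succinylsulfathiazole in both diets. The KO allele carries a cassette at the first coding ATG and was brought from C57BL/6 into 129S6 by backcrossing, and the study describes a shorter Tet1 transcript that starts downstream of it. In a sample list that the study gives for a different assay the embryos were of different litters, and a neural tube defect is noted for both KO and for neither WT embryo, so genotype, litter and phenotype cannot be told apart. Tissue and genotype rest on the labels, since CpG reads measure no transcript. Without replicates no value has an SD, and every test on reads compares 2 embryos and not 2 conditions. Mean coverage of autosomal CpGs ranged from 13.2 reads (KO at 30 ppm) to 21.2 reads (KO at 3 ppm), and 0.914% to 0.938% of reads at mitochondrial CpGs read as methylated, which measures incomplete conversion.

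Most CpGs of a mammalian genome are methylated, while stretches that are dense in CpGs, the CpG islands, are mostly unmethylated and mark promoters. A minority of CpG-dense sequence is methylated all the same. It is known to lie in exons inside transcribed genes, in transposable elements and tandem repeats, and in promoters of germline genes that are shut in somatic cells. TET1 binds CpG-rich DNA through a CXXC zinc finger and is known to keep islands and their edges free of methylation. In the 1390 tiles described here the starting level was high, so that loss of methylation in an embryo had far more room than gain.

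What such sequence looks like is shown for 6 of the tiles, which were chosen because the results below turn on them. Each is the window of 300 bases within the tile that holds the most CpGs with 5 reads in every library, outside annotated untranslated exons, read from the plus strand of GRCm38 with every CpG in capitals. The first 3 come from coding exons of Shroom3 (chr5:92942328-92942627, 41 CpGs), Mycn (chr12:12937009-12937308, 23 CpGs) and Plec (chr15:76181010-76181309, 24 CpGs). The fourth lies 32 to 331 bases upstream of the outer one of 2 annotated start sites of Dazl, a gene on the minus strand (chr17:50293668-50293967, 21 CpGs). The fifth is a short tandem repeat 3581 bp from Rnf223 (chr4:156137004-156137303, 30 CpGs), and the sixth a soft-masked repeat 6232 bp from Cks2 (chr13:51638001-51638300, 26 CpGs).
Shroom3: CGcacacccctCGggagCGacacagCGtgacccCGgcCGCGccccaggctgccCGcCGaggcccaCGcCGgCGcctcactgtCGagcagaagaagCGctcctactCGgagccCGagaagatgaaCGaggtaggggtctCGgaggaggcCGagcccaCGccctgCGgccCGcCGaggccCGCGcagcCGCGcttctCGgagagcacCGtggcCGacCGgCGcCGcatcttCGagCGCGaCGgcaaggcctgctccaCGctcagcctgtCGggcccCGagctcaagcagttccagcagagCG
Mycn: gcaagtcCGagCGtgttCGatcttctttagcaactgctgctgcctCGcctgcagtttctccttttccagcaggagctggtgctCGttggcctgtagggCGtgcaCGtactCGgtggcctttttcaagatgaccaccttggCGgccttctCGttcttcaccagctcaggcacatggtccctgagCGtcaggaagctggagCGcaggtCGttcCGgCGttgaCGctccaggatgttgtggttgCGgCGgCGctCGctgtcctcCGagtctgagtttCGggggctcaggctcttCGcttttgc
Plec: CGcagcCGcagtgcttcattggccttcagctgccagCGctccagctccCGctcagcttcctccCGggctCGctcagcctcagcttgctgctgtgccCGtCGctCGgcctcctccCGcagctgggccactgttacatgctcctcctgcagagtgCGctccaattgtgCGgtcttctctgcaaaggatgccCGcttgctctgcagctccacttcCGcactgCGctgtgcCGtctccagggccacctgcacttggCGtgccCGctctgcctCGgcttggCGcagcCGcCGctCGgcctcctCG
Dazl: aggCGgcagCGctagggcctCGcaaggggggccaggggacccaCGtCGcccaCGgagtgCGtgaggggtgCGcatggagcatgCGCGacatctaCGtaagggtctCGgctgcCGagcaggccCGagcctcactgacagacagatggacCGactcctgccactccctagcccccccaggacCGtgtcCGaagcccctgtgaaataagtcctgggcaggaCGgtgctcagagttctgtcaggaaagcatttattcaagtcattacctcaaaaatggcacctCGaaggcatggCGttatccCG
Tandem repeat near Rnf223: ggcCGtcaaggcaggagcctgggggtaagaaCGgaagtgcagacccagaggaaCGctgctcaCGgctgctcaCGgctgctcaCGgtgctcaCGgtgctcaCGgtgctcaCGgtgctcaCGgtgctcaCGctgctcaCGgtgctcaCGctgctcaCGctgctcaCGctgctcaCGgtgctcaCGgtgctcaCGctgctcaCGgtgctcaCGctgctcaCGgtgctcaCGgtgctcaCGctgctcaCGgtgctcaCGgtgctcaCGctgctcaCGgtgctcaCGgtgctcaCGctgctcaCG
Repeat near Cks2: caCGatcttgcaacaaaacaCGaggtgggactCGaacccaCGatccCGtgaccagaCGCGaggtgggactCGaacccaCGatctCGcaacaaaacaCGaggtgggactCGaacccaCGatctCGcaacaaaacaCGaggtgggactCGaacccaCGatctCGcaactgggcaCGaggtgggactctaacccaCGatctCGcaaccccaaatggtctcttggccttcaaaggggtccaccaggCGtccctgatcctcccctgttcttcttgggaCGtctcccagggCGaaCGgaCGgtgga
The coding windows come from tiles with little or no repeated sequence, with CpGs at irregular spacing. The tandem repeat places a CpG in nearly every unit, and the same 31-base word recurs within the window near Cks2.

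The 1390 tiles fell into 2 large groups of sequence. At least 50% of the bases were soft-masked as repeats in the reference in 586 tiles (42.2%), which are called repeat-rich below. Of the other 804 tiles, 512 overlapped a coding exon outside promoters, 138 lay in a promoter (within 1 kb of the start site of a protein-coding transcript), 69 overlapped another exon, 45 were intronic and 40 intergenic. This was unlike the unmethylated CpG-dense tiles, of which 83.5% lay in promoters and 4 of 11117 were repeat-rich. Seen from the other side, 95.6% of the 613 repeat-rich CpG-dense tiles were methylated by the rule, against 35.2% of the 1469 in coding exons and 1.20% of the 11754 in promoters. Position and repeat content took no part in the rule, but no test was made of these shares, since tiles of 1 genome are not replicates.

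Base composition differed in the same sense. The median GC content was 56.6% in the methylated tiles and 59.3% in the unmethylated ones, and the median ratio of observed to expected CpGs was 0.60 against 0.73. A median of 44 CpGs was listed per methylated tile and of 59 per unmethylated tile. The methylated tiles thus held fewer CpGs but had more of them scored, since 53.0% of their listed CpGs had 5 reads in every library, against 25.8% in the unmethylated tiles. Reads per tile had a median of 240.5 (KO) and 244 (WT) at 30 ppm, against 418 (KO) and 275.5 (WT) at 3 ppm.

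Repeated sequence was shared between tiles. In 610 tiles (43.9%) at least 50% of the 31-base words occurred more than once on chromosomes 1 to 19, X and Y, against 60 of 11117 unmethylated tiles. Words with at least 2 CpGs are given here, because they show that many tiles share repeated sequence. The first was held by the most tiles, and each later one by the most tiles without an earlier word. A word is counted on both strands.
Word in 130 tiles: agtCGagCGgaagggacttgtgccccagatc
Word in 87 tiles: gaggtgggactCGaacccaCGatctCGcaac
Word in 56 tiles: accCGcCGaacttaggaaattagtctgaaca
The first word occurred 3773 times in the genome, the second 427 times and the third 4718 times, and together they were found in 273 of the methylated tiles (19.6%). None of them was found in an unmethylated CpG-dense tile, and 132, 87 and 59 of all CpG-dense tiles held them. The words were picked for their frequency in the methylated tiles, so these counts are no test. The second word is the one that recurs in the window near Cks2. Reads from such sequence can be placed at another copy, and the levels of these tiles are therefore less certain than those of unique sequence.

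Methylation was high in every library. Tile levels had a median of 93.5% (interquartile range 89.9 to 95.8) in WT at 30 ppm, 94.4% (91.4 to 96.3) in KO at 30 ppm and 94.0% (91.2 to 95.8) in KO at 3 ppm. In the library that chose the tiles the median was 94.0% (90.4 to 96.1). Of the 1390 tiles, 54 lay under 80% in WT at 30 ppm, and 25 and 17 did so in KO at 30 and 3 ppm. In all, 1318 (94.8%) were at 80% or more in all 4 libraries. The lowest tile levels were 42.1% in WT and 67.3% in KO at 30 ppm, and 73.4% in KO at 3 ppm.

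**Figure D1:**
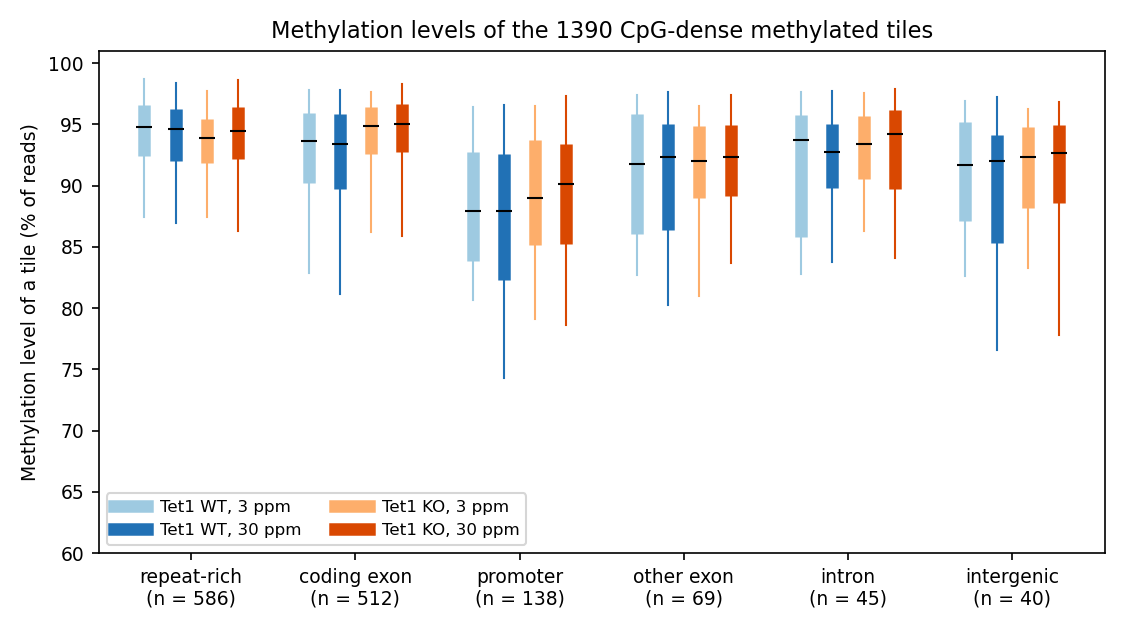
Methylation level of a tile (y axis, % of reads, shown from 60%) by class of sequence (x axis) in the 4 libraries. Thick bars span the quartiles, thin lines the 5th to 95th percentile and black marks the median, and the coding exon medians of both KO libraries (94.9% and 95.01%) lie above those of both WT libraries (93.4% and 93.6%).

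The other WT library shows how far the choice itself shapes the values. With the tiles chosen on WT at 30 ppm instead, 1396 tiles passed, and 1336 were common to both sets (96.1% of the set used here and 95.7% of the other). The median difference between 30 and 3 ppm in WT was -0.47 points over the tiles (percentage points of methylation, points below) and -0.59 points over all scored tiles. It moved to -0.19 points when WT at 30 ppm chose the tiles. The library that chooses is thus pushed upwards, most in the tiles that it placed at 95% to 100%, of which 29.5% were higher at 30 ppm in WT, against 55.6% of those it placed at 80% to 85%. For this reason nothing is read from calls in either contrast with WT at 3 ppm, and their counts are printed below as descriptions. The contrasts independent of the choice are KO versus WT at 30 ppm and 30 versus 3 ppm in KO.

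Tiles at the border of the rule were few. In the choosing library 20 tiles lay less than 1 point above 80% and 14 CpG-dense tiles less than 1 point below it. With at least 100 reads in every library, the 3 just inside were Klb at 80.2% (a co-receptor of fibroblast growth factors), Hyal2 at 80.2% (a hyaluronidase) and Polg at 80.2% (the catalytic subunit of the mitochondrial DNA polymerase). The 3 just outside were Prr23a2 at 79.7%, Cdh24 at 79.6% (a cadherin) and Snx19 at 79.6% (a sorting nexin). In KO at 30 ppm the 3 inside stood at 81.9%, 88.5% and 94.3%, and the 3 outside at 75.6%, 85.6% and 81.3%, so the values on both sides of the border overlapped.

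Loss of Tet1 was examined first under excess FA, where neither library took part in the choice. The KO level was above the WT level in 822 of 1390 tiles (59.1%, beside 59.3% of all scored tiles), below it in 562 and equal in 6. The median difference was 0.68 points (quartiles -1.21 and 3.16), smaller than the 1.23 points over all scored tiles and far smaller than the 9.37 points of CpG-dense tiles at 20% to 80%. Methylated tiles of medium density (20 to 39 CpGs, at least 80% in the same WT library) had a median of 1.32 points, and CpG-dense tiles under 20% of 1.85 points. The median was above 0 on 19 of 19 autosomes, from 0.03 points on chromosome 6 to 2.29 points on chromosome 11. Autosomes of the same embryos are not replicates, and the count over all scored tiles was not made.

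A tile was called hyper or hypo by Fisher's exact test on the reads of the 2 libraries (two-sided, Benjamini-Hochberg adjusted p under 0.05 over all scored tiles) together with a difference of at least 10 points. At 30 ppm 24 tiles (1.73%) were hyper in KO, beside 1.13% of all scored tiles, and 2 (0.144%) were hypo, beside 0.0487%. The hyper share is close to that of the genome at large and to the 1.29% of the methylated tiles of medium density, and well under the 16.4% of CpG-dense tiles at 20% to 80%. All scored tiles had fewer reads, with medians at 30 ppm of 93 (KO) and 100 (WT) against 240.5 and 244. The called shares do not allow for this. A gain of 10 points was out of reach for the 1034 tiles that stood above 90% in WT at 30 ppm. With a minimum of 10 reads per CpG, which scored 1061 tiles, 9 were hyper and 0 hypo, and with a threshold of 20 points 1 was hyper. The last was the tile at D630045J12Rik, with 3 scored CpGs. Shares of all scored tiles under these 2 settings were not counted.

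The difference was not even across the classes of sequence. In the 512 coding exon tiles KO exceeded WT at 30 ppm by a median of 1.47 points, and 68.9% of them were higher in KO. Methylated tiles of medium density had a like median of 1.32 points, with 65.3% higher in KO. Over all scored tiles the median was 1.23 points, with 59.3% higher. Promoter tiles had a median of 1.54 points (63.0% higher in KO) and repeat-rich tiles of 0.00 points (49.5% higher). Other exons, introns and intergenic tiles outside repeats had medians of 0.44, 0.45 and 1.08 points. Of the 24 hyper tiles, 17 lay in coding exons (3.32% of that class) and 2 were repeat-rich (0.341%), beside 1.13% of all scored tiles. The classes differed in reads, with medians in WT at 30 ppm of 308.5 in coding exons and 182.5 in repeat-rich tiles. Room for a gain differed too, since 378 of 512 coding exon tiles and 506 of 586 repeat-rich tiles stood above 90% in that library. The called shares allow for neither. Expressed as unmethylated reads pooled over a class, the share in coding exons was 5.65% in KO and 7.44% in WT, a ratio of 0.76, whereas in repeat-rich tiles it was 5.96% in KO and 5.93% in WT, a ratio of 1.01. In methylated tiles of medium density the ratio was 0.86.

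**Figure D2:**
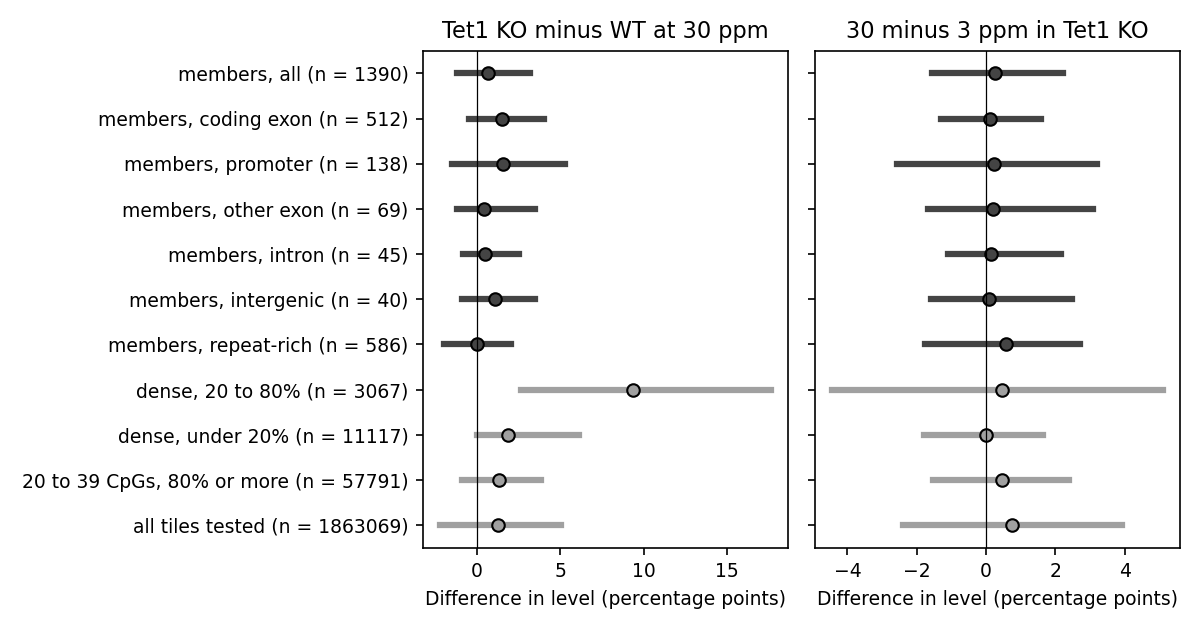
Difference in tile level in percentage points (x axis) for KO minus WT at 30 ppm (left) and 30 minus 3 ppm in KO (right), by class (y axis), with the median as a circle and the quartiles as a bar. Dark rows are classes of the 1390 methylated tiles and grey rows other tiles, and the CpG-dense tiles at 20% to 80% stand apart on the left with a median of 9.37 points.

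The tiles were also split by their level in WT at 3 ppm, the value that chose them. Among coding exon tiles at 80% to 85%, 86.0% of 50 were higher in KO at 30 ppm, with a median difference of 5.28 points. The median was 3.68 points at 85% to 90% (75 tiles), 1.59 at 90% to 95% (191 tiles) and 0.30 at 95% to 100% (196 tiles). Repeat-rich tiles of the same 4 steps had medians of -1.63 (13 tiles), 0.33 (51), -0.07 (241) and 0.00 points (281). The steps did not equalise the WT library that was compared, whose medians were 82.8% in coding exons and 86.0% in repeat-rich tiles at 80% to 85%, and 88.4% and 90.2% at 85% to 90%. In coding exons its medians were 92.7% and 95.8% in the upper steps, so the split also set the room for a gain. The fall along the steps is therefore a description. Repeat-rich tiles at 80% to 90% were few, and whether multiple placement of their reads plays a part was not tested.

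**Figure D3:**
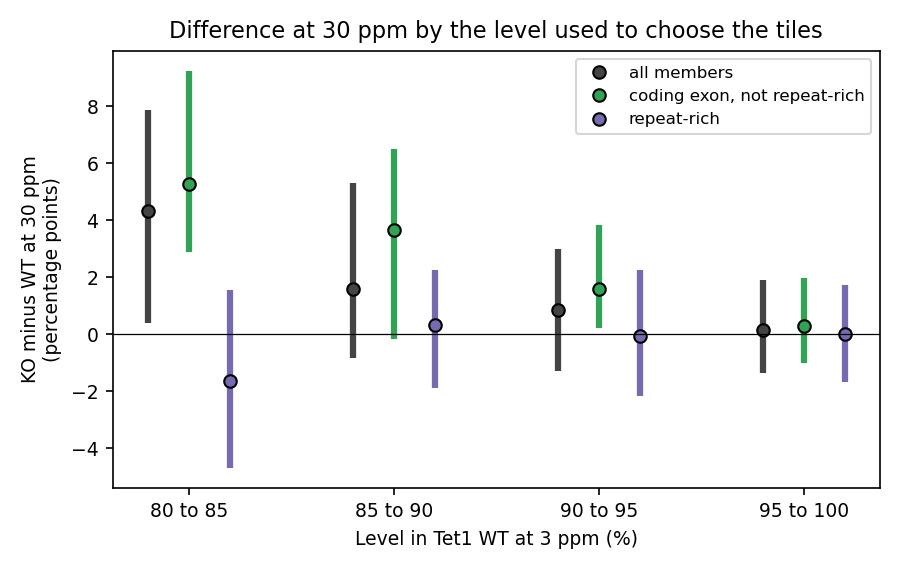
KO minus WT difference at 30 ppm (y axis, percentage points) against the level in WT at 3 ppm (x axis, %) for all 1390 tiles, coding exon tiles and repeat-rich tiles, with medians as circles and quartiles as bars. The coding exon median falls from 5.28 points at 80% to 85% to 0.30 points at 95% to 100%, and the repeat-rich median stays between -1.63 and 0.33 points. The split by level also sets the room for a gain.

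Shroom3 held the tile with the most CpGs of all 1390. The gene encodes an actin-binding protein that narrows the apical side of neural plate cells and is needed for closure of the cranial neural tube. The tile (chr5:92942001-92943000) is coding over its whole length, lists 122 CpGs and has 46 with 5 reads in every library. Its level was 83.9% (95% Wilson interval 80.1 to 87.1) in WT at 3 ppm and 84.3% (80.6 to 87.4) in WT at 30 ppm, against 92.8% (90.6 to 94.4) in KO at 3 ppm and 96.0% (93.7 to 97.4) in KO at 30 ppm. The intervals of KO and WT at 30 ppm did not overlap. The difference at 30 ppm was 11.6 points (Fisher's exact test, adjusted p = 2.87e-06), with 34 of its CpGs higher in KO and 2 lower. With a minimum of 10 reads only 7 CpGs were left, and the difference was 4.03 points (Fisher's exact test, adjusted p = 0.973).

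Among tiles with 100 reads in every library, the largest called gain inside a gene was in Klf13, which encodes a Krüppel-like zinc finger transcription factor. Its tile (chr7:63891001-63892000) covers 287 coding bases and 49 CpGs. It was at 82.1% (77.6 to 85.8) and 78.5% (73.4 to 82.8) in WT at 3 and 30 ppm, and at 93.9% (92.0 to 95.4) and 96.2% (94.0 to 97.6) in KO. At 30 ppm KO exceeded WT by 17.7 points (Fisher's exact test, adjusted p = 1.79e-10), and 30 of 39 CpGs were higher. With a minimum of 10 reads the tile had no value.

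Zfhx3, a large homeobox and zinc finger transcription factor gene, gave a like picture. Its called tile (chromosome 8, 55 CpGs, coding throughout) was at 83.9% (78.5 to 88.1) and 82.6% (77.2 to 87.0) in WT at 3 and 30 ppm, and at 96.5% (93.4 to 98.1) and 96.3% (91.6 to 98.4) in KO. The difference at 30 ppm was 13.7 points (Fisher's exact test, adjusted p = 0.00922). No value was left with a minimum of 10 reads. Between the diets KO differed by -0.17 points. Of its 21 CpGs, 14 were higher in KO at 30 ppm, 1 was lower and 6 were equal. The gene holds 5 of the 1390 tiles, and their median difference at 30 ppm was 0.10 points, far below that of this tile.

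In other named genes WT at 30 ppm stood alone. The rule held the other WT library, at 3 ppm, at 80% or more. A tile under 80% in both WT embryos could therefore not appear here. Mycn, the MYC family gene of neural progenitors (chr12:12937001-12938000, 52 CpGs), was at 68.1% (64.1 to 71.7) in WT at 30 ppm, against 82.3% (79.0 to 85.3) in the other WT embryo, and 86.9% (84.6 to 88.9) and 82.6% (79.0 to 85.8) in KO at 3 and 30 ppm. At 30 ppm KO exceeded WT by 14.6 points (Fisher's exact test, adjusted p = 3.55e-05), beside 4.58 points at 3 ppm. Tubb5, a beta tubulin gene (chr17:35835001-35836000), was at 77.1% (73.4 to 80.5) in WT at 30 ppm, 85.6% in the other WT embryo, and 87.8% and 91.8% (89.0 to 93.9) in KO at 3 and 30 ppm. Its difference was 14.7 points at 30 ppm (adjusted p = 1.68e-07, Fisher's exact test) and 2.21 points at 3 ppm. Zfp710, a zinc finger gene (chr7:80081001-80082000), was at 83.8% (76.0 to 89.4, 117 reads) in WT at 30 ppm and between 95.6% and 98.6% in the other 3 libraries. Its difference at 30 ppm was 14.8 points (Fisher's exact test, adjusted p = 0.00266). In these 3 genes the deviating library is 1 embryo, and with a minimum of 10 reads neither Mycn (13.3 points, Fisher's exact test, adjusted p = 0.0517, 21 CpGs) nor Tubb5 (14.2 points, adjusted p = 0.633, 5 CpGs) passed. Zfp710 had no value under that minimum and did not pass after thinning of the reads (12.04 points).

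The largest called difference among tiles with 100 reads in every library lay in no gene but in the tandem repeat near Rnf223 (chr4:156137001-156138000). It lists 103 CpGs, 2.1% of it is soft-masked, and 88.1% of its 31-base words occur more than once. The level was 82.9% (78.4 to 86.6) and 74.0% (67.9 to 79.3) in WT at 3 and 30 ppm, and 84.1% (80.5 to 87.1) and 92.5% (88.1 to 95.3) in KO. The difference at 30 ppm was 18.5 points (Fisher's exact test, adjusted p = 9.95e-05), and that at 3 ppm 1.19 points. It too had no value with a minimum of 10 reads. Whether reads were placed correctly in this array was not tested.

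The remaining hyper tiles, named here after their values were seen, covered genes of several functions. They were coding exons of the transcription factor genes Cux1 and Rreb1, the chromatin reader gene Ing1, the zinc finger gene Zfp319, the ligand gene Wnt7b, the signalling genes Socs5 and Pik3r2, the connexin gene Gja3, the glycosyltransferase gene B4galnt4, Polg and Plec, and exons or promoters of Rgl1, Gm11993, Dlgap1 and D630045J12Rik. Repeat-rich intergenic tiles near Castor2 and Rpia complete the 24. Zfp319 had the smallest p of the 24 (82.9% in WT and 96.6% in KO at 30 ppm, 13.7 points, Fisher's exact test, adjusted p = 2.16e-13), with 85.1% in WT and 95.7% in KO at 3 ppm. Differences at 30 ppm over the 24 tiles ranged from 10.2 to 24.96 points with a median of 12.9. The largest, at D630045J12Rik, rested on 3 scored CpGs of 59 listed, with 36 reads in WT and 71 in KO at 30 ppm. At 3 ppm, in a pair of libraries that shares none with the 30 ppm pair, KO was above WT in 23 of the 24, with a median of 6.78 points and a range from -2.43 to 12.6. Among all methylated tiles KO was above WT at 3 ppm in 49.9%. Among those at 80% to 85% in WT at 3 ppm, where 13 of the 24 stood, it was above WT in 76.3%. Coding exon tiles made up 17 of the 24. In that class KO was above WT at 3 ppm in 86.0% of tiles at 80% to 85% and in 85.3% at 85% to 90%. The level of WT at 3 ppm chose the tiles, so this is a description.

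**Figure D4:**
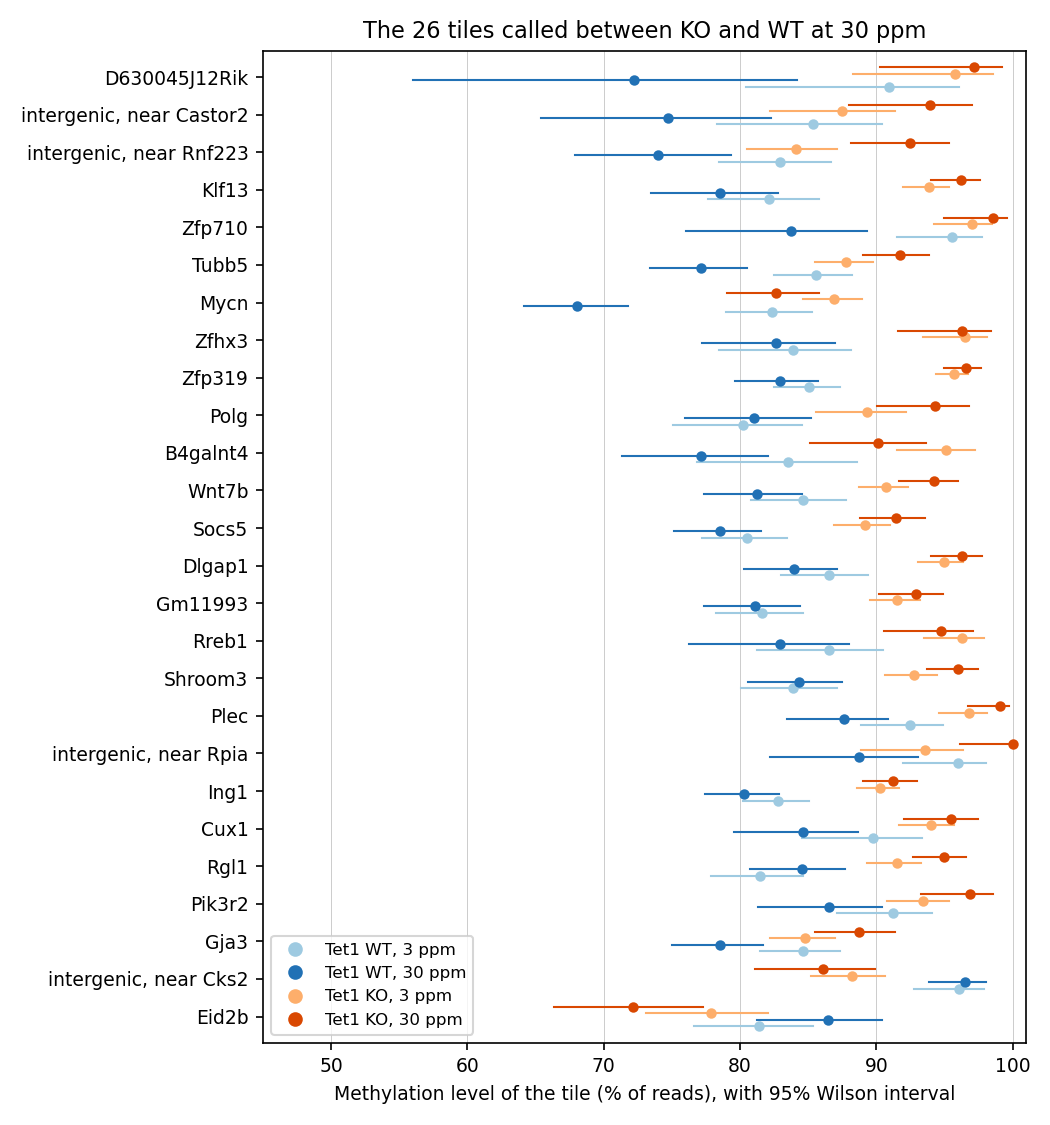
Methylation level (x axis, % of reads) with 95% Wilson intervals in the 4 libraries for the 26 tiles called between KO and WT at 30 ppm (y axis, by gene or nearest gene, in order of the difference). Orange points (KO) lie to the right of blue points (WT) at 30 ppm in the upper 24 tiles, an order fixed by the call. At 3 ppm they do so in 23 of the upper 24 tiles. At the repeat near Cks2 and at Eid2b they lie to the left at 30 ppm, again by the call, and also at 3 ppm.

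Both hypo tiles went against the common direction. The first lies in the promoter of Eid2b, a member of a family of transcription inhibitors (chr7:28278001-28279000, 42 CpGs, 17 of them scored). It was at 81.4% (76.6 to 85.3) and 86.4% (81.2 to 90.4) in WT at 3 and 30 ppm, and 77.9% (73.1 to 82.0) and 72.2% (66.4 to 77.3) in KO. The difference at 30 ppm was -14.3 points (Fisher's exact test, adjusted p = 0.0208), but -7.34 points as the mean of the CpG levels and -4.06 points with a minimum of 10 reads, where it was not called. The second is the repeat near Cks2 (chr13:51638001-51639000), all of which is soft-masked. It was at 96.1% (92.7 to 97.9) and 96.5% (93.9 to 98.0) in WT at 3 and 30 ppm and at 88.2% (85.2 to 90.6) and 86.1% (81.1 to 89.9) in KO, where WT at 3 ppm is the choosing library. Its difference at 30 ppm was -10.4 points (Fisher's exact test, adjusted p = 0.00243), with 18 of 24 CpGs lower in KO and 2 higher. With a minimum of 10 reads the difference was -8.95 points and was not called. The 87 tiles that share its 31-base word had a median difference of -0.63 points at 30 ppm and of -1.50 points at 3 ppm, beside 0.00 and -0.96 points over all repeat-rich tiles. The KO allele was brought in from another strain, and whether a strain difference lies at this repeat was not tested.

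**Figure D5:**
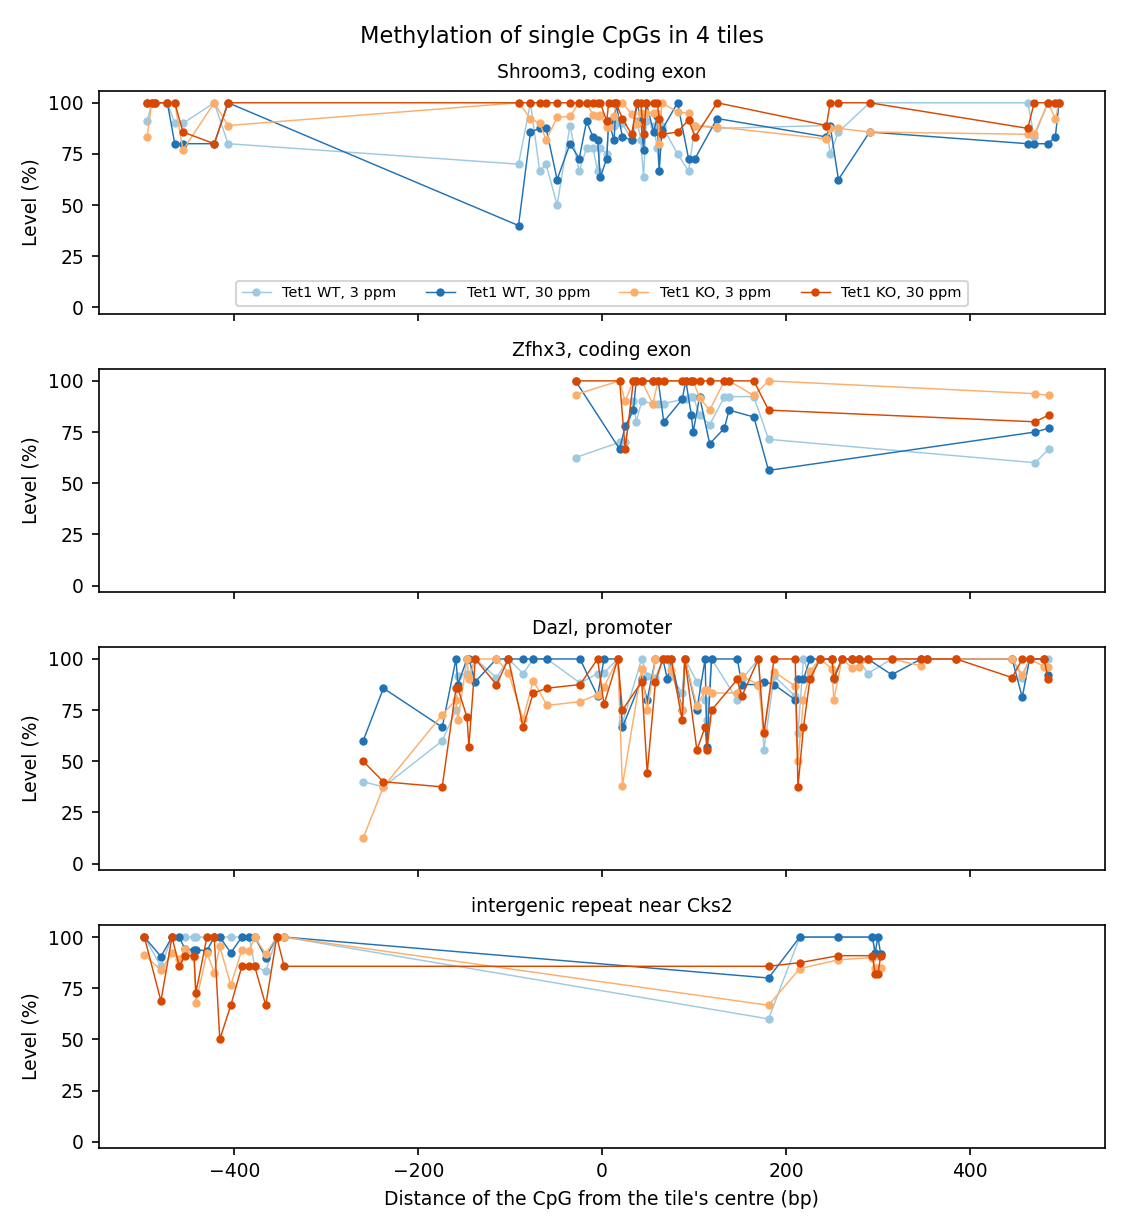
Methylation level of single CpGs (y axis, %) against the distance from the tile's centre (x axis, bp) in 4 tiles, with the 4 libraries as coloured lines and only CpGs with 5 reads in every library drawn. In Shroom3 and Zfhx3 the KO lines run above the WT lines over most CpGs, near Cks2 they run below them, and in Dazl 29 of 55 CpGs were lower in KO than in WT at 30 ppm.

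Long coding exons made the longest unbroken stretches. The 1390 tiles formed 1253 single tiles, 54 pairs and 8 longer runs, of which the longest had 5 tiles. Plec, the gene of the cytoskeletal linker plectin, held 10 tiles in all and 2 of the 3 longest runs. In its run of 5 tiles (chr15:76177001-76182000, 4766 coding bases, 311 CpGs) the level was 95.6% (94.5 to 96.5) and 93.2% (91.8 to 94.4) in WT at 3 and 30 ppm, and 96.2% (95.4 to 96.9) and 97.8% (96.8 to 98.4) in KO. The tile at one end (chr15:76181001-76182000) was called, with 87.6% (83.5 to 90.8) in WT and 99.1% (96.7 to 99.7) in KO at 30 ppm, higher by 11.46 points (Fisher's exact test, adjusted p = 6.89e-05), a difference that was 9.73 points with a minimum of 10 reads and then not called. In the run of 4 tiles (chr15:76172001-76176000) all libraries lay between 97.2% and 97.6%.

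Spen, which encodes a large RNA-binding corepressor, held the other run of 5 tiles (chr4:141474001-141479000, coding throughout, 225 CpGs). Its levels were 94.0% (92.6 to 95.2) and 94.2% (92.7 to 95.4) in WT at 3 and 30 ppm, and 95.6% (94.6 to 96.4) and 95.8% (94.5 to 96.9) in KO. The 5 tiles differed by -0.999 to 6.15 points at 30 ppm and none was called. Trim44, Chst13 and Hsf5 were named for their many CpGs, and none of these 3 tiles was called. The promoter tile of Trim44 (104 CpGs, 7 scored) was at 98.2% in WT and 92.6% in KO at 30 ppm, with an adjusted p of 0.581 by Fisher's exact test. Chst13, a sulfotransferase gene (93 CpGs), was at 79.4% and 81.9%, and Hsf5, a heat shock factor gene (92 CpGs), at 93.1% and 94.5%.

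As a share of the CpG-dense tiles of a class, methylated tiles were rare in promoters (1.20%), and some of those lay at germline genes. Of 44 genes listed as germline genes silenced by promoter methylation in somatic cells, 25 had a CpG-dense promoter tile that could be scored, 31 tiles in all, and 18 of these tiles in 17 genes were methylated by the rule. The list was written with such genes in mind, so the share describes the choice of the list. Over the 18 tiles the median level was 90.9% and 89.8% in WT at 3 and 30 ppm, and 88.5% and 90.5% in KO. At 30 ppm 8 were higher in KO and 10 lower, with a median difference of -0.71 points beside 0.68 over all 1390 tiles, and 0 were called. Fisher's exact test at an unadjusted p under 0.05 found 1 (5.56%), beside 17.5% of the 1390 tiles and 9.76% of all scored tiles, which had fewer reads (medians of 244 and 100 per tile in WT at 30 ppm, in the 1390 tiles and in all). At 3 ppm, where the choosing library is one of the pair, 5 were higher in KO and 13 lower, with a median of -2.31 points beside 0.00 over the 1390 tiles.

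Single germline promoters lay on both sides of 0 at 30 ppm. Dazl, which encodes an RNA-binding protein of germ cells (chr17:50293001-50294000, 79 CpGs), was at 91.6% (89.4 to 93.5) and 92.6% (90.1 to 94.5) in WT at 3 and 30 ppm, and at 88.5% (86.4 to 90.3) and 85.4% (82.0 to 88.2) in KO. The difference at 30 ppm of -7.23 points (adjusted p = 0.0243, Fisher's exact test) fell short of the 10 points. Under a minimum of 10 reads it became 1.61 points, a change of direction. Within the window printed above, its CpGs stood at 94.6% in WT and 93.0% in KO at 30 ppm. Mael, a gene of the piRNA pathway, was at 86.3% in WT and 90.6% in KO at 30 ppm. Sohlh2, a germ cell transcription factor gene, was at 93.5% and 96.9%. Brdt, the testis bromodomain gene, was at 89.98% and 90.5%, and Hormad1, a gene of the meiotic chromosome axis, at 89.6% and 90.5%. Dazl was lower in KO and these 4 were higher, and none was called.

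The other germline promoters named by the rule stood between 81.1% and 98.1% at 30 ppm. Dpep3, a testis dipeptidase gene, was at 93.8% in WT and 94.2% in KO at 30 ppm, Rpl10l, a testis ribosomal protein gene, at 98.1% and 96.3%, and Majin, which ties meiotic telomeres to the nuclear envelope, at 84.7% and 85.2%. Hsf2bp, a meiotic recombination gene, was at 87.6% and 84.7%. The 2 tiles of D1Pas1, a testis RNA helicase gene, were at 88.0% and 87.8%, and at 95.6% and 94.4%. Stk31, a testis kinase gene, was at 82.8% (79.4 to 85.7) and 81.1% (77.2 to 84.5) at 30 ppm. At 3 ppm it was at 87.6% in WT and 75.3% in KO, where the WT value is that of the choosing library.

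Other gene groups were read from lists that were written with earlier results known, by a tile's gene or promoter. C2H2 zinc finger genes, taken as all genes with a Zfp symbol, held 46 of the methylated tiles among 291 CpG-dense tiles (15.8%) in 38 genes. Their median difference at 30 ppm was 0.97 points, and 2 of the 46 were hyper, where 1.13% of all scored tiles were. Voltage-gated calcium, potassium and sodium channel genes held 13 of 79 tiles (16.5%), with a median of 3.25 points and 0 called. Homeobox and forkhead genes, taken only by symbols such as Hox, Pax, Fox and Otx, held 2 of 349 tiles (0.573%), with 0 called at 30 ppm. Collagens and laminins held 2 of 33, clustered protocadherins 3 of 60 and the writers and erasers of DNA methylation 1 of 7, again with 0 called at 30 ppm. Nearly all CpG-dense sequence of the Hox, Pax and Fox type genes thus lay below 80% in the choosing library. The symbols missed Zfhx3, a homeobox and zinc finger gene, and Klf13, a zinc finger gene, each with a tile called hyper at 30 ppm. The counts of called tiles therefore hold for the listed symbols and not for whole gene families.

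Excess FA was compared with control FA in KO, in 2 libraries that took no part in the choice. The level at 30 ppm was higher in 754 tiles, lower in 635 and equal in 1, with a median of 0.25 points, beside 0.76 points over all scored tiles. By Fisher's exact test 0 tiles were hyper and 0 hypo, where 0.0430% and 0.0253% of all scored tiles were called, a rate at which fewer than 1 call would fall among 1390 tiles. At an unadjusted p under 0.05 180 tiles (12.95%) passed, beside 7.13% of all scored tiles, which had fewer reads (medians of 93 and 152 in KO at 30 and 3 ppm, against 240.5 and 418). Repeat-rich tiles had a median of 0.58 points and coding exon tiles of 0.11 points. Differences ranged from -19.1 to 16.9 points. At Shroom3 the difference was 3.22 points (adjusted p = 0.631, Fisher's exact test), at Klf13 2.32 points (adjusted p = 0.779), at Tubb5 3.96 points (adjusted p = 0.596) and at the repeat near Cks2 -2.12 points (adjusted p = 1).

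Contrasts with the choosing library describe the chosen tiles and test nothing. At 3 ppm the median of KO minus WT was 0.00 points, with 693 tiles above 0 and 691 below. Counted in the same way, 11 were hyper and 2 hypo, and over all scored tiles 1.10% were hyper and 0.114% hypo. Coding exon tiles had a median of 0.79 points and repeat-rich tiles of -0.96 points. From 3 to 30 ppm in WT, 0 tiles were hyper and 3 hypo, beside 0.00886% and 0.0381% of all scored tiles. These 3 were Mycn, the pseudogene Cdv3-ps (86.0% at 3 ppm and 70.5% at 30 ppm) and a tile in the clustered protocadherin genes of chromosome 18 (90.5% and 74.2%), the last of which was at 73.4% and 71.2% in KO and thus high in the choosing library alone.

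Across both diets, the KO embryos lay above the WT embryos without overlap in 333 of 1390 tiles (24.0%), beside 22.5% of all scored tiles, and the WT embryos above the KO embryos in 207 (14.9%), beside 15.1%. Both shares are near those of the genome. In coding exon tiles the shares were 37.9% and 9.38%, in promoter tiles 26.8% and 15.2%, and in repeat-rich tiles 11.1% and 19.3%. Over all CpG-dense tiles they were 51.4% and 5.57%. The choosing library is among the 4, so these shares are no test.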

How the data were processed

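Whole-genome bisulfite libraries of 4 embryonic brains, 1 per group, were used. According to the study's methods and the submitters' processing notes, the authors trimmed reads with Trim Galore 0.6.10, aligned them to mm10 (GRCm38.p6) with Bismark 0.23.1, removed duplicates and combined the strands at every CpG. Each of the deposited tables gives a methylation fraction and a read count per CpG, with a lowest count of 2. Methylated reads were recovered as the fraction times the count. The 12 deposited lists of differentially methylated regions hold the authors' own comparisons and were not used.

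Only CpGs covered by 5 or more reads in every library were summed in 1 kb tiles, and tiles with at least 3 such CpGs were scored. Pairs of libraries were compared by Fisher's exact test on summed reads (two-sided, Benjamini-Hochberg over all scored tiles, adjusted p under 0.05 and at least 10 points). A read counts at every CpG it covers, so reads are not independent, and Wilson intervals (95%) and p-values cover counting error only. Tiles were annotated with GENCODE M21, and sequence and soft-masking came from the RefSeq GRCm38 reference. Named tiles were, with at least 100 reads in every library, those with the largest called differences per direction, those with the most CpGs, runs of at least 4 tiles, promoters of listed germline genes and the tiles next to the 80% border. The tiles, gene lists and tests were chosen with earlier results of these data known. The scripts used Python 3.11.15, NumPy 2.4.6, SciPy 1.17.1, pandas 2.3.3, Numba 0.67.0 and matplotlib 3.10.9. The test was tried on simulated tiles with independent reads, where the changed tiles had lower starting levels and larger gains than most called here. That trial does not measure how reliable the calls are in the 1 kb tiles described here. Alternatives were the read minimum, the number of scored CpGs, the level and density limits, the choosing library and the mean of CpG levels. Further ones were thinned reads, a shifted grid, the size of difference, and the removal of repeats or of chromosome 10.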

Additional observations from a re-analysis of the deposited data

Results flagged for a closer look

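The difference between 30 and 3 ppm FA had opposite directions in KO and WT in 3 results, which is what singled them out. With 1 embryo per group the difference between the genotypes was not tested. Over the 1390 tiles the median was 0.25 points in KO and -0.47 points in WT, and the choice of tiles on WT at 3 ppm lowers the second value. Over all scored tiles the medians also had opposite signs, 0.76 points in KO and -0.59 points in WT. The opposite directions are thus not particular to the 1390 tiles. In the tandem repeat near Rnf223 the level was 8.38 points higher at 30 ppm in KO, and the difference in WT was -8.93 points. In the Eid2b promoter the difference was -5.72 points in KO and 5.08 points in WT. By Fisher's exact test none of these 4 single-tile differences passed (adjusted p = 0.314 and 0.573 near Rnf223, 0.831 and 0.914 at Eid2b). With a minimum of 10 reads the Eid2b difference in KO was -0.056 points. The signs were opposite in 50.4% of the 1390 tiles and in 50.8% of all scored tiles. Diets had opposite directions by at least 5 points in both genotypes in 14 of the 1390 tiles (1.01%), against 6.37% of all scored tiles. All scored tiles had fewer reads, with medians at 30 ppm of 93 (KO) and 100 (WT) against 240.5 and 244. Their levels were also lower, with a median of 87.4% against 93.5% in WT at 30 ppm. The shares do not allow for either.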

How the results depend on the processing

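Over 13 alternatives, 12 of them planned and the removal of repeated 31-base words chosen after seeing the data, 78 of 112 values stayed close to the reported ones, 34 moved and 0 reversed. Only a median whose 95% interval excluded 0 could count as reversed. The counts could not, nor could the median of KO minus WT at 3 ppm, which ranged from -0.47 to 0.66 points. A median counted as close if it lay within the interval of the reported one. This interval comes from the ranks of the tile differences and takes tiles as independent draws. Tiles are not replicates, so it served only to sort the values and covers no spread between embryos. A minimum of 10 reads per CpG gave 9 hyper and 0 hypo tiles at 30 ppm, 1 hypo tile for diet in KO and a median of -0.64 points for diet in WT. Without a minimum 4 tiles were hypo at 30 ppm. With at least 20 scored CpGs, 845 tiles remained, with 1 hypo at 30 ppm and 1 hypo for diet in KO. A level of at least 90% gave 5 hyper and 1 hypo tiles and medians of 0.41 points (KO minus WT at 30 ppm), -0.47 points (at 3 ppm) and -0.62 points (diet in WT). At least 50 CpGs left 340 tiles with 12 hyper, 0 hypo and a median of -0.28 points at 3 ppm. Choice on WT at 30 ppm gave 1 hyper and 2 hypo tiles for diet in KO and a median of -0.19 points for diet in WT. The mean of CpG levels gave 1 hypo tile at 30 ppm. A grid shifted by 500 bp gave medians of 0.45 points at 30 ppm and -0.25 points for diet in WT. Without repeat-rich tiles 804 remained, with 1 hypo tile and medians of 1.30 points at 30 ppm and 0.60 points at 3 ppm. Without repeated words 780 remained, with 1 hypo tile and medians of 1.27 points at 30 ppm, 0.66 points at 3 ppm and 0.081 points for diet in KO. A threshold of 20 points gave 1 hyper and 0 hypo tiles. Thinned reads gave 16 hyper tiles. For alternatives that change the scoring or the threshold, the shares of all scored tiles were not counted. Except where an alternative removes tiles, CpGs or reads by construction, the cause of these moves was not tested. Among the named tiles, the calls of Mycn, Tubb5, Shroom3, Polg, Eid2b, the Plec tile and the repeat near Cks2 were lost with 10 reads, and Klf13, Zfhx3, Zfp710 and the repeat near Rnf223 had no value, so that no call among them was kept under that minimum. Also lost were the calls of Zfp710 and Polg with thinned reads and that of Eid2b with the mean of CpG levels.

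With 1 embryo per group no difference has a replicate check, and litter, neural tube defect and genotype cannot be told apart. Tiles above 90% had no room for a gain of 10 points. How reads of repeated sequence were placed was not tested. No paired analysis was possible, because each group holds 1 embryo and the sample list for a different assay places the embryos in different litters.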
